A study of Homo sapiens with 3 samples.

Results

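The genes described here are the expressed neighbours of FLI1 on the distal long arm of chromosome 11 (11q). They are 67 protein-coding genes that start between 100 and 140 Mb on chromosome 11 (GRCh38), have a mean of at least 5 FPKM (a level per gene length and per library depth) over the 3 libraries, and are not FLI1, ETS1, CASP1, CASP4, CARD16, IL18, HSPA8 or a symbol that starts with SLC, TRIM, SDH, NDUF, COX, UQCR or ATP5. The stretch holds 280 protein-coding genes, of which 100 had 0 counts in every library, and the whole table holds 61550 genes, of which 7596 were protein-coding with a mean of at least 5 FPKM (called expressed below). The libraries were poly-A RNA-seq of HK1, an established nasopharyngeal carcinoma line, taken after exposure to activated CD8+ T cells. Cells carried a FLI1 knockout (KO) made with the single guide RNA sgFLI1-1 (1 library) or sgFLI1-2 (1 library), or were wild type (WT, 1 library). The sources used here do not say whether a KO line was 1 clone or a pool of cells. The KO columns were matched to the guides by their number alone, so a swap would move every value given for 1 guide to the other.

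FLI1 is a transcription factor of the ETS family, whose members bind DNA at a GGAA core and act at the promoters and enhancers of genes on every chromosome. The distal part of 11q carries genes of unrelated function side by side: kinases and histones of the DNA damage response, apoptosis inhibitors, chromatin regulators, enzymes, cell adhesion proteins, a cluster of matrix metalloproteinases and the genes of the CD3 chains of the T cell receptor. Neighbours of this kind are transcribed from their own promoters, except for pairs that start head to head within a shared promoter.

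The stretch was chosen by measured values: an earlier result on these libraries had its expressed genes lower with sgFLI1-1. The direction of the members' change in that library is therefore a description of what chose them, and with 1 library on each side no ratio below carries a test. Ratios are log2 ratios of read counts scaled to library size, with 95% exact binomial intervals that cover counting error only. In bulk RNA, fewer cells of a kind and less RNA per cell cannot be told apart.

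Gene counts summed to 23904587 in sgFLI1-1, 22409203 in sgFLI1-2 and 22172158 in WT, and a member had between 181 and 10648 counts in a library. The mitochondrial share lay between 1.02 and 1.09% of counts. Of 10 T cell markers, 7 (CD2, CD247, CD3D, CD3E, CD3G, CD8A and CD8B) were at 0 in every library, and the markers summed to 6 counts in sgFLI1-1, 17 in sgFLI1-2 and 12 in WT. The 8 epithelial markers summed to 76575, 72550 and 63355 counts in the same order of libraries, nearly all from KRT8 and KRT18, while KRT5, KRT6A and TP63, markers of squamous cells, had at most 30 counts. In that order of libraries CDH1 had 40, 23 and 14 counts, EPCAM 160, 93 and 183, and KRT17 790, 641 and 996. FLI1 itself had 11 counts in sgFLI1-1, 109 in sgFLI1-2 and 125 in WT. The library with sgFLI1-1 was thus far below WT for FLI1 mRNA (log2 ratio -3.54, interval -4.64 to -2.71) and the interval of the sgFLI1-2 library included no difference (-0.22, -0.61 to 0.16). An edited gene can keep its mRNA, so these counts do not check the edit.

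The members were lower as a group in the library with sgFLI1-1 and not in the library with sgFLI1-2. Their summed counts made up 0.438% of the library with sgFLI1-1, 0.658% with sgFLI1-2 and 0.638% in WT. Their median level was 11.8 FPKM with sgFLI1-1, 15.6 FPKM with sgFLI1-2 and 16.3 FPKM in WT. Relative to WT the median member stood at 68.6% with sgFLI1-1 (log2 ratio -0.54) and at 101% with sgFLI1-2 (0.02). The median of all expressed genes lay at 0.04 with sgFLI1-1 and 0.02 with sgFLI1-2 on the same scale.

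With sgFLI1-1, 59 of 67 members were below WT, where 46.3% of all expressed genes were. By at least 1.5-fold, 31 members were lower than WT (46.3% of them, background 9.37%) and 0 were higher (background 8.28%). With sgFLI1-2, 32 of 67 were below WT (background 47.0%), 3 were at least 1.5-fold lower (background 6.78%) and 3 at least 1.5-fold higher (background 4.95%). The shares with sgFLI1-2 lay near those of all expressed genes.

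The ratio of the KO libraries to each other leaves the single WT library out. By this ratio 65 of 67 members were lower with sgFLI1-1 than with sgFLI1-2 (background 45.9%), with a median of -0.55. At least 1.5-fold, 32 members were lower (47.8%, background 1.76%) and 0 were higher (background 1.36%). The quartiles of the members' ratios lay 0.33 apart on the log2 scale, beside 0.29 for all expressed genes, so the members lay below 0 with a spread near that of the transcriptome. Counting error alone left 64 members with an interval wholly below 0, 1 (POGLUT3) wholly above and 2 that included 0.

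**Figure D1:**
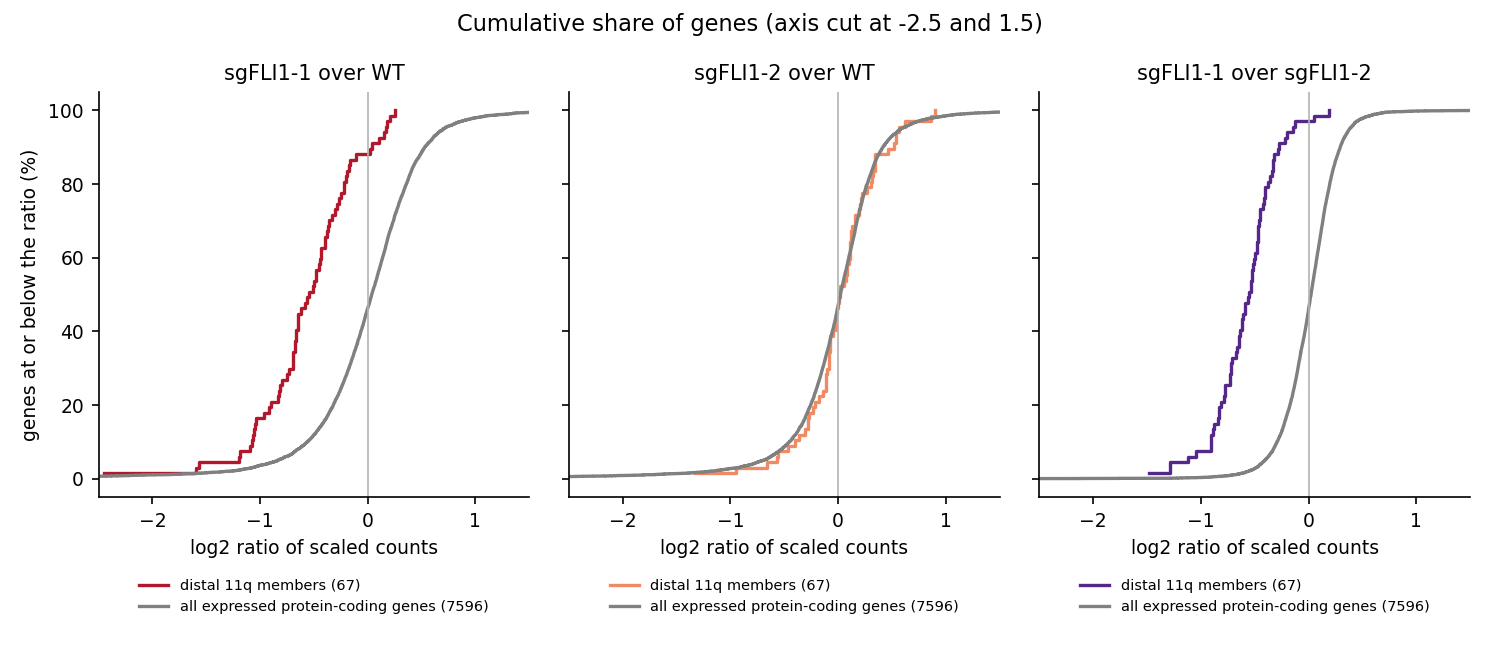
Cumulative share of genes (percent, vertical axis) at or below each log2 ratio of scaled counts (horizontal axis) for the 67 members (coloured) and all 7596 expressed protein-coding genes (grey), with 1 panel for each pair of libraries. The members' curve lies left of the grey one in both panels that have sgFLI1-1 on top (medians -0.54 and -0.55) and follows the grey one for sgFLI1-2 over WT (median 0.02).

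Ranked within each gene, sgFLI1-1 was the lowest of the 3 libraries for 58 of 67 members (86.6%), where it was lowest for 31.3% of all expressed genes. In 31 of these members sgFLI1-2 lay between sgFLI1-1 and WT, and in 27 it lay above WT. WT was the lowest library for 8 members, and sgFLI1-2 for 1, POGLUT3, which encodes a glucosyltransferase of the endoplasmic reticulum. POGLUT3 had 1109 counts with sgFLI1-1, 925 with sgFLI1-2 and 1351 in WT.

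Near the start of the stretch, neighbouring members differed in the ratio of the KO libraries, and single genes do not locate where a shift begins. The member closest to 100 Mb, YAP1, the transcriptional coactivator of the Hippo pathway, had 4532 counts with sgFLI1-1, 4169 with sgFLI1-2 and 3758 in WT, and its ratio of the KO libraries was 0.05 (interval -0.01 to 0.11). The next member, BIRC3, an inhibitor of apoptosis and ubiquitin ligase of NF-kB signalling, had 693 counts with sgFLI1-1, 1608 with sgFLI1-2 and 1383 in WT, a ratio of -1.28 between the KO libraries (-1.42 to -1.16). YAP1 ends at 102233424 and BIRC3 starts at 102317450. The 2 members that follow, BIRC2, the paralogous apoptosis inhibitor, and TMEM123, a membrane protein, had ratios of -0.36 and -0.20 between the KO libraries.

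The windows on either side differed in sign. In the 5 Mb before 100 Mb, 5 expressed genes had a median of 0.23 for sgFLI1-1 over sgFLI1-2, and the 388 expressed genes of chromosome 11 before 100 Mb had a median of 0.03. In the 7 windows of 5 Mb that hold members, the medians of the members were, in order from 100 Mb, -0.36, -0.33, -0.47, -0.65, -0.64, -0.59 and -0.67. For sgFLI1-1 over WT they were -0.28, -0.27, -0.45, -0.67, -0.82, -0.51 and -0.65. For sgFLI1-2 over WT they were 0.13, 0.11, -0.01, 0.00, -0.18, -0.05 and 0.02. The difference between the KO libraries thus lay closer to 0 before 110 Mb (median -0.33 over 12 members, 10 of them below 0) than over the last 38 members, from MPZL2 on (median -0.65, all 38 below 0). The 17 members between these groups had a median of -0.47 and were all below 0. AMOTL1, at 94.7 Mb and outside the stretch, was also lower with sgFLI1-1 (2262 counts) than with sgFLI1-2 (3360 counts), but not lower than in WT (2081 counts).

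**Figure D2:**
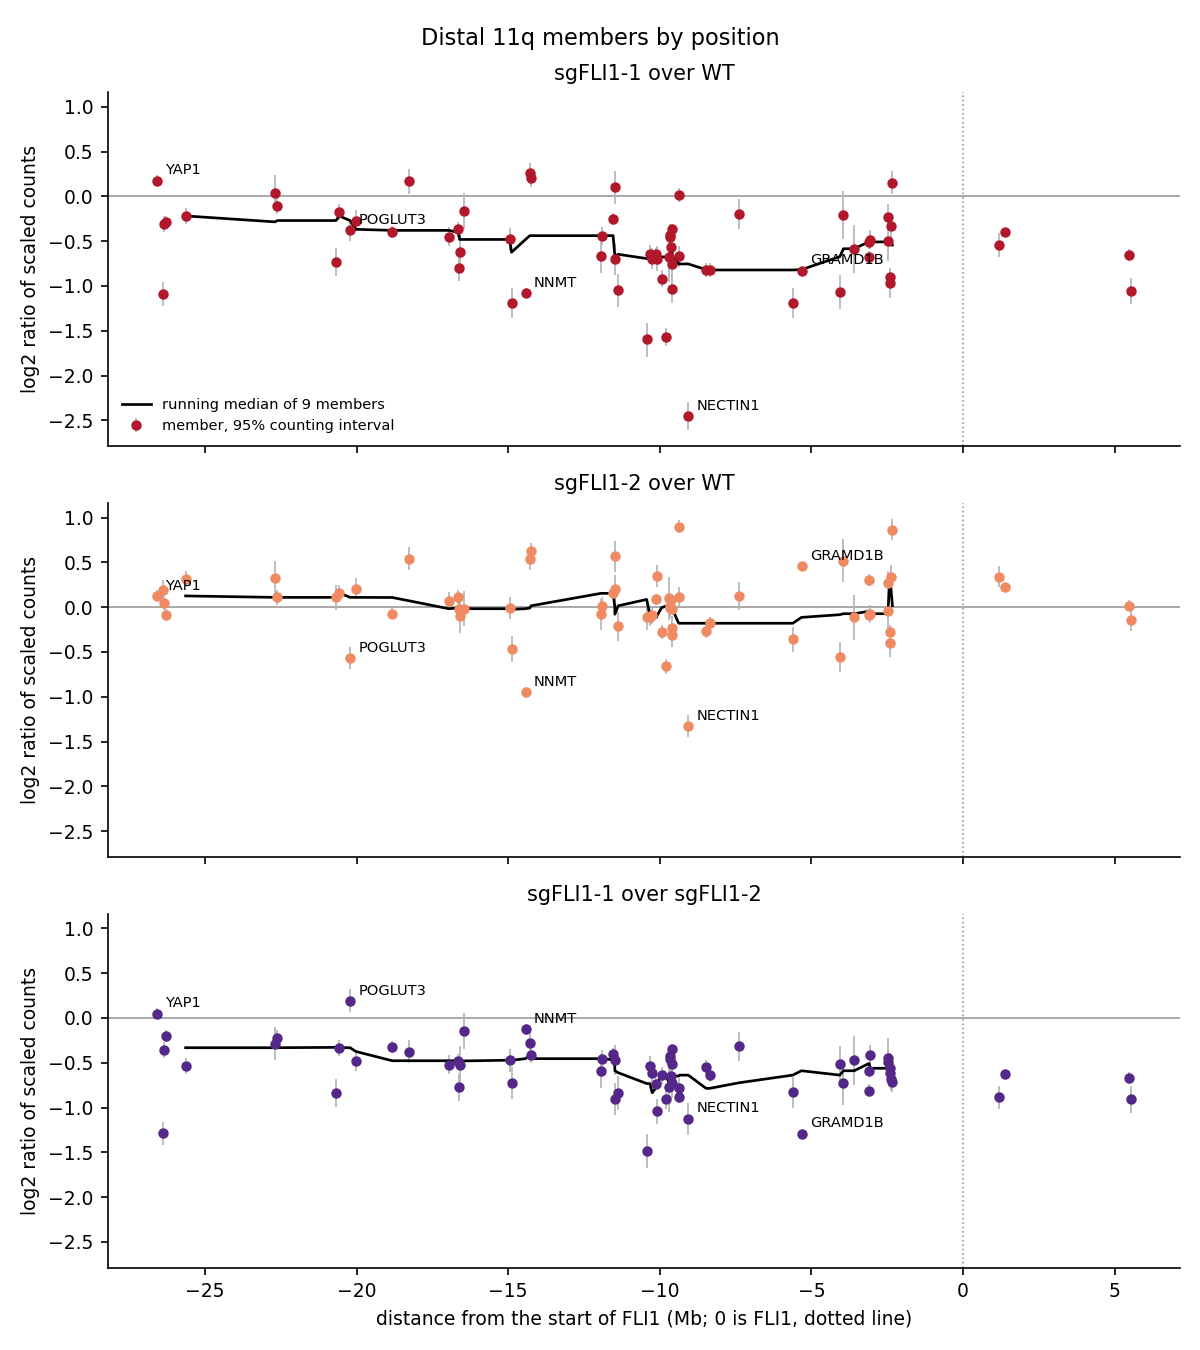
Log2 ratio of scaled counts (vertical axis) of each member by the distance of its start from the start of FLI1 in Mb (horizontal axis), with 1 panel for each pair of libraries, bars for the 95% counting interval and a running median of 9 members. The ratio of YAP1, the leftmost point, is 0.05 for sgFLI1-1 over sgFLI1-2, and nearly all points to its right lie below 0 in that panel, on both sides of FLI1.

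Members lay on both sides of FLI1, 63 before it and 4 after it. The 4 after it, NFRKB, APLP2, NCAPD3 and VPS26B, had a median of -0.78 for sgFLI1-1 over sgFLI1-2, and the 63 before it had a median of -0.53. The nearest member before FLI1 was ST3GAL4, a sialyltransferase, with 1057 counts in sgFLI1-1, 1648 in sgFLI1-2 and 889 in WT. The nearest after it was NFRKB, a subunit of the INO80 chromatin remodeller, with 775 counts in sgFLI1-1, 1363 in sgFLI1-2 and 1058 in WT. With sgFLI1-1 the ratio to WT was 0.15 for ST3GAL4 and -0.54 for NFRKB, while both were lower with sgFLI1-1 than with sgFLI1-2 (-0.71 and -0.89). The sgFLI1-2 library was above WT for both, by 0.87 and 0.34.

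Among 248 windows of 10 Mb with at least 10 expressed genes over the autosomes and chromosome X, the 3 windows of this stretch had the 3 lowest medians for sgFLI1-1 over sgFLI1-2 (between -0.60 and -0.34, beside a middle window at 0.04). For sgFLI1-1 over WT 1 of them was the lowest of the 248 (-0.62), and the highest of the 3 was at -0.34 with 11 windows at or below it, itself included. For sgFLI1-2 over WT the 3 lay between -0.06 and 0.11. Chromosome 7 differed from this pattern: its 303 expressed genes were low in both KO libraries relative to WT (medians -0.37 with sgFLI1-1 and -0.46 with sgFLI1-2), and the KO libraries lay close to each other there (0.06). Other regions also differed between the KO libraries, and those given here were picked by their values. For sgFLI1-1 over sgFLI1-2, chromosome 12 had medians of 0.34, 0.54 and 0.29 in its windows from 0 to 30 Mb. Chromosome 10 had 0.34 and 0.38 in its windows from 80 to 100 Mb. Chromosome 9 had -0.24 from 90 to 100 Mb. The 3 windows of this stretch include the members themselves, which were chosen for this difference.

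**Figure D3:**
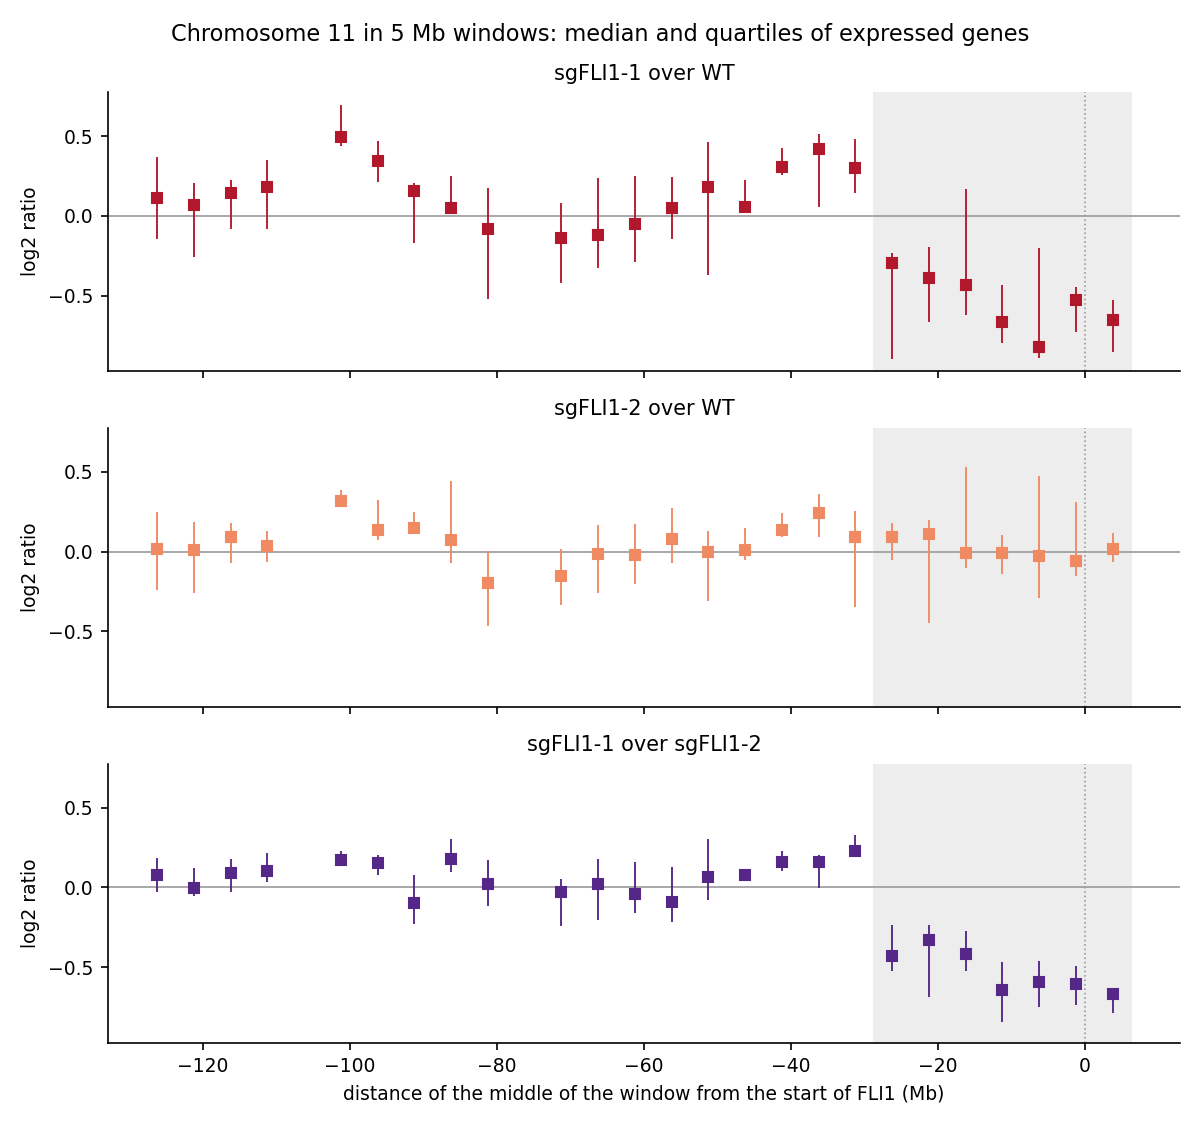
Median log2 ratio (squares) and quartiles (bars) of the expressed protein-coding genes of chromosome 11 in 5 Mb windows with at least 3 such genes, by distance of the window's middle from the start of FLI1 in Mb, with 1 panel for each pair of libraries and the windows that hold members shaded. For sgFLI1-1 over sgFLI1-2 the 7 shaded windows lie below 0 and the window just before them lies at 0.23, while the shaded windows of sgFLI1-2 over WT lie around 0.

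In the fit of both KO libraries against WT (edgeR's quasi-likelihood test, 15483 genes, Benjamini-Hochberg adjustment), 2 members were called lower at an adjusted p under 0.05 and at least 2-fold, and 0 were called higher. Over all genes tested, 2.95% were called lower and 1.83% higher, so the members' share was close to the background. At an unadjusted p under 0.05 there were 12 members lower and 0 higher, and DESeq2 called 0 in either direction. This fit reads the members' main difference, which separates the 2 KO libraries, as spread within the KO group.

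NECTIN1, an adhesion molecule of epithelial junctions and an entry receptor of herpes simplex virus, was called lower. It had 395 counts with sgFLI1-1, 820 with sgFLI1-2 and 2022 in WT, and both KO libraries lay below WT. Its log2 fold change was -1.78 (SE 0.33, adjusted p = 0.0080 by edgeR), and its ratios to WT were -2.45 with sgFLI1-1 and -1.33 with sgFLI1-2. The call was lost with DESeq2 (adjusted p = 0.33) and without the filter on low counts (adjusted p = 0.34).

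NNMT, which methylates nicotinamide with the methyl group of S-adenosylmethionine, was also called lower. It had 3924 counts with sgFLI1-1, 4082 with sgFLI1-2 and 7762 in WT, so the KO libraries lay close together and both lay below WT. Its log2 fold change was -1.01 (SE 0.16, adjusted p = 0.0035 by edgeR). Without the filter on low counts the adjusted p was 0.14, and DESeq2 put its log2 fold change at -0.99, just short of 2-fold, with an adjusted p of 1.8e-05. Its ratio between the KO libraries was -0.13 (-0.19 to -0.06), and among the members only YAP1 and POGLUT3 had a higher one.

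BCL9L, a coactivator of beta-catenin in WNT signalling, had 1048 counts with sgFLI1-1, 1871 with sgFLI1-2 and 2911 in WT. The libraries were ordered as for NECTIN1, with sgFLI1-1 lowest and WT highest. It did not pass the test (log2 fold change -1.05, SE 0.28, adjusted p = 0.055 by edgeR).

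The members of the DNA damage and genome maintenance list were all lower with sgFLI1-1 than in either other library. Of the 11 genes listed 8 were members, with medians of -0.60 for sgFLI1-1 over WT, -0.01 for sgFLI1-2 over WT and -0.70 for sgFLI1-1 over sgFLI1-2. In the same order, the medians were -0.54, 0.02 and -0.55 over all 67 members and 0.04, 0.02 and 0.02 over all expressed genes. Like every list here, this one holds genes of a stretch chosen for low values with sgFLI1-1. H2AX, the histone variant phosphorylated around DNA breaks, had 4651 counts with sgFLI1-1, 5614 with sgFLI1-2 and 5589 in WT. CHEK1, the kinase that ATR activates at stalled replication forks, had 1214 counts with sgFLI1-1, 1534 with sgFLI1-2 and 1587 in WT. NCAPD3, a subunit of condensin II, had 2845 counts with sgFLI1-1, 4306 with sgFLI1-2 and 4184 in WT. For all 3 the ratio to WT lay between -0.65 and -0.36 with sgFLI1-1 and between -0.07 and 0.02 with sgFLI1-2. USP28, a deubiquitinase that acts with p53 in the response to mitotic delay, had 434 counts with sgFLI1-1, 683 with sgFLI1-2 and 929 in WT, so that both KO libraries were below WT (-1.19 and -0.47). CEP164, a protein of the centriole's distal appendages, had ratios of -1.05 with sgFLI1-1 and -0.22 with sgFLI1-2. None of the 8 was called by edgeR.

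Of 12 genes listed for ubiquitin and protein turnover 7 were members, and all 7 were lower with sgFLI1-1 than with sgFLI1-2 (median -0.72) and than in WT (median -0.67). With sgFLI1-2 their median over WT was 0.11. CUL5, a cullin scaffold of ubiquitin ligases, had 550 counts with sgFLI1-1, 936 with sgFLI1-2 and 854 in WT. DCUN1D5, which helps to attach NEDD8 to cullins, had 1918 counts with sgFLI1-1, 2646 with sgFLI1-2 and 2089 in WT. RNF26, a ubiquitin ligase of the endoplasmic reticulum, had 942 counts with sgFLI1-1, 1546 with sgFLI1-2 and 1403 in WT. In these 3 genes sgFLI1-1 was the lowest library and sgFLI1-2 the highest. BIRC2 had 1832 counts with sgFLI1-1, 2234 with sgFLI1-2 and 2120 in WT, a ratio of -0.31 to WT with sgFLI1-1 that was smaller in size than that of its neighbour BIRC3 (-1.09).

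Secretory pathway genes made the longest list, with 12 members of 19 genes. Their medians were -0.61 for sgFLI1-1 over WT (11 of 12 below 0), 0.05 for sgFLI1-2 over WT and -0.63 for sgFLI1-1 over sgFLI1-2. APLP2, a relative of the amyloid precursor protein, had 7244 counts with sgFLI1-1, 10602 with sgFLI1-2 and 8951 in WT. EI24, a membrane protein of the endoplasmic reticulum, had 2860 counts with sgFLI1-1, 4096 with sgFLI1-2 and 4269 in WT. ARCN1, the delta subunit of the COPI coat, had 3240 counts with sgFLI1-1, 5124 with sgFLI1-2 and 4747 in WT. In each of these, sgFLI1-1 was the lowest library. The exceptions of the list were POGLUT3, which was lower with sgFLI1-2, and ST3GAL4, which was above WT in both KO libraries.

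Cell adhesion and cytoskeleton members spread most. The 8 members of 18 listed genes had ratios between -2.45 and 0.10 for sgFLI1-1 over WT (median -0.61) and between -1.33 and 0.90 for sgFLI1-2 over WT (median -0.10), and all 8 were lower with sgFLI1-1 than with sgFLI1-2. MPZL2, an epithelial adhesion protein of the immunoglobulin superfamily, had 313 counts with sgFLI1-1, 834 with sgFLI1-2 and 888 in WT, the lowest ratio of the KO libraries among the members (-1.48, interval -1.68 to -1.30). CLMP, an adhesion protein of tight junctions, had 442 counts with sgFLI1-1, 747 with sgFLI1-2 and 943 in WT. RDX, radixin, which ties actin to the plasma membrane, had 3198 counts with sgFLI1-1, 3822 with sgFLI1-2 and 3954 in WT. MCAM, the adhesion molecule CD146, had 2845 counts with sgFLI1-1, 4986 with sgFLI1-2 and 2628 in WT. For MCAM the sgFLI1-1 library was level with WT (0.02, interval -0.06 to 0.10) and sgFLI1-2 stood above both, as it did for TAGLN, the actin-binding protein transgelin (536 counts with sgFLI1-1, 705 with sgFLI1-2 and 468 in WT). Neither MCAM nor TAGLN passed the test (adjusted p = 0.35 and 0.44 by edgeR).

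Chromatin and transcription factor members numbered 7 of 16 listed genes, with medians of -0.70 for sgFLI1-1 over WT, -0.09 for sgFLI1-2 over WT and -0.61 for sgFLI1-1 over sgFLI1-2. KMT2A, the histone H3 lysine methyltransferase rearranged in leukaemia, had 989 counts with sgFLI1-1, 1438 with sgFLI1-2 and 1502 in WT. DDX6, a helicase of mRNA decapping and storage, had 1441 counts with sgFLI1-1, 2141 with sgFLI1-2 and 2552 in WT. PHLDB1, a protein with a pleckstrin homology domain, had 662 counts with sgFLI1-1, 1297 with sgFLI1-2 and 1003 in WT, a ratio of -1.04 between the KO libraries. DDX6 and PHLDB1 are neither chromatin proteins nor transcription factors by these roles. Without these 2, a choice made after their values were seen, the other 5 had medians of -0.70 for sgFLI1-1 over WT, -0.09 for sgFLI1-2 over WT and -0.51 for sgFLI1-1 over sgFLI1-2. The 2 members above WT with sgFLI1-1 were YAP1 (0.18) and MSANTD4 (0.04), both among the first 6 members from the start of the stretch.

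Of 13 genes listed for RNA processing and translation 10 were members. All 10 were lower with sgFLI1-1 than with sgFLI1-2 (median -0.49), and 8 were lower with sgFLI1-1 than in WT (median -0.38). RPS25, a protein of the small ribosomal subunit and the member of highest level, had 363 FPKM with sgFLI1-1, 493 FPKM with sgFLI1-2 and 480 FPKM in WT. DDX10, a helicase of ribosome assembly, had 1057 counts with sgFLI1-1, 1401 with sgFLI1-2 and 1193 in WT. The 2 members above WT with sgFLI1-1 were neighbours, RBM7, a subunit of the nuclear exosome targeting complex (1367 counts with sgFLI1-1, 1576 with sgFLI1-2 and 1071 in WT), and REXO2, an oligoribonuclease (1813 counts with sgFLI1-1, 2302 with sgFLI1-2 and 1471 in WT). Both were above WT in both KO libraries, and by less with sgFLI1-1 (0.26 and 0.21) than with sgFLI1-2 (0.53 and 0.62).

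Among the lists of at least 7 members, metabolic enzymes lay closest to WT with sgFLI1-1, which was not so with sgFLI1-2. Their 10 members of 15 listed genes had medians of -0.23 for sgFLI1-1 over WT, 0.11 for sgFLI1-2 over WT and -0.35 for sgFLI1-1 over sgFLI1-2, with all 10 below 0 in the last. ACAT1, a mitochondrial thiolase of ketone body and isoleucine metabolism, had 1912 counts with sgFLI1-1, 2291 with sgFLI1-2 and 2017 in WT. FDX1, the ferredoxin that feeds electrons to mitochondrial cytochromes P450, had 974 counts with sgFLI1-1, 1202 with sgFLI1-2 and 812 in WT. Both were highest with sgFLI1-2, and the lowest library was sgFLI1-1 for ACAT1 and WT for FDX1. The kinase and phosphatase list had 2 members of 12 genes, CHEK1 and PPP2R1B, a scaffold subunit of protein phosphatase 2A, which had 1277 counts with sgFLI1-1, 1746 with sgFLI1-2 and 1635 in WT.

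**Figure D4:**
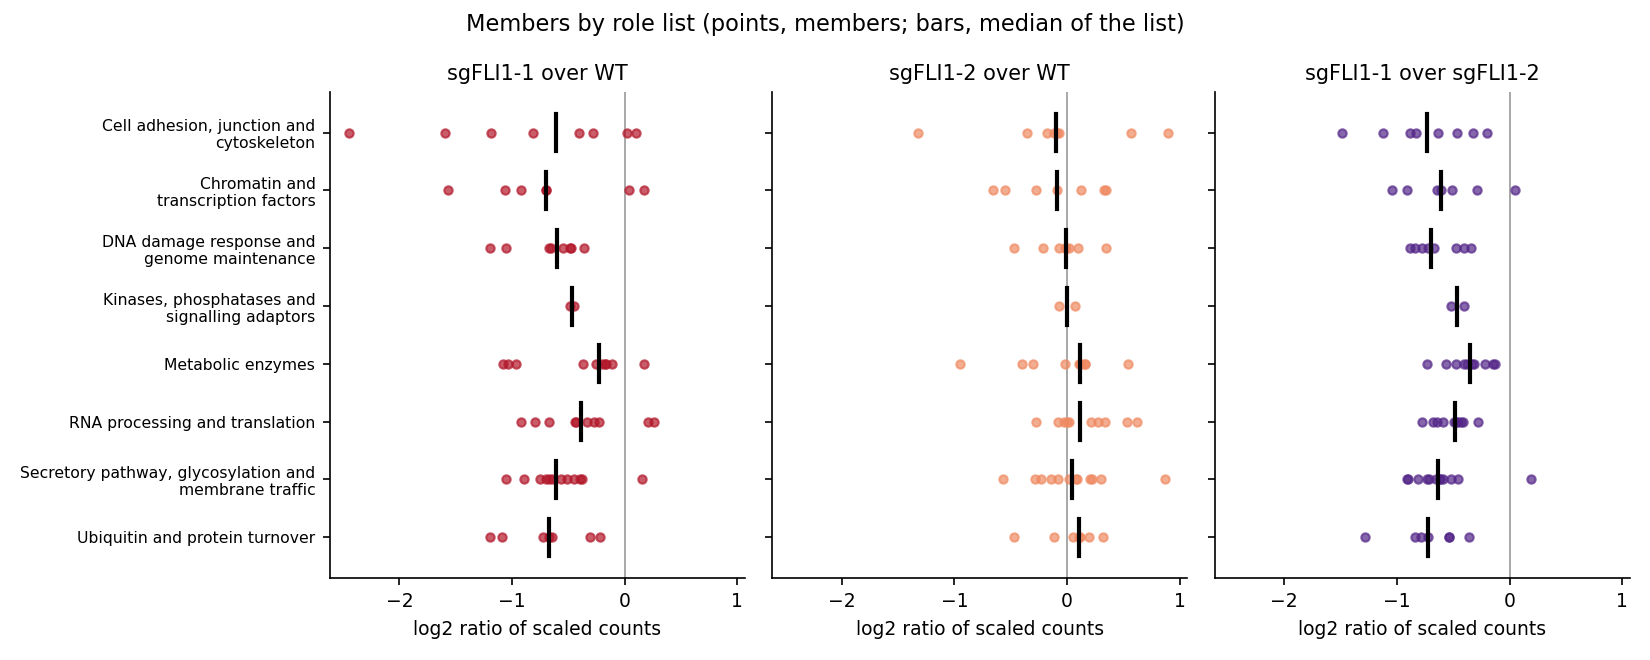
Log2 ratio of scaled counts (horizontal axis) of the members on each role list (rows), with 1 point for a member and a bar at the median of the list, and 1 panel for each pair of libraries. Every list has its median below 0 for sgFLI1-1 over WT and for sgFLI1-1 over sgFLI1-2, from -0.23 and -0.35 for metabolic enzymes downward.

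The members on no list were GRAMD1B, TMEM218, TIMM8B, NRGN, OAF and FAM118B. GRAMD1B, which moves cholesterol from the plasma membrane to the endoplasmic reticulum, had 4571 counts with sgFLI1-1, 10648 with sgFLI1-2 and 7608 in WT. Its counts and its FPKM differed in what they showed: by FPKM it stood at 23.9 with sgFLI1-1, 68.6 with sgFLI1-2 and 66.1 in WT, so that the log2 ratio to WT with sgFLI1-1 was lower by FPKM than by counts (difference -0.64). For sgFLI1-1 over WT it was the member with the widest difference of this kind on the lower side, and TMEM218 the one on the upper side (0.17). Over all members the median difference was -0.01 in that ratio. SC5D, on the metabolic enzyme list, had a wider difference for sgFLI1-1 over sgFLI1-2 (-0.88). It also had the highest for sgFLI1-2 over WT (0.43).

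**Figure D5:**
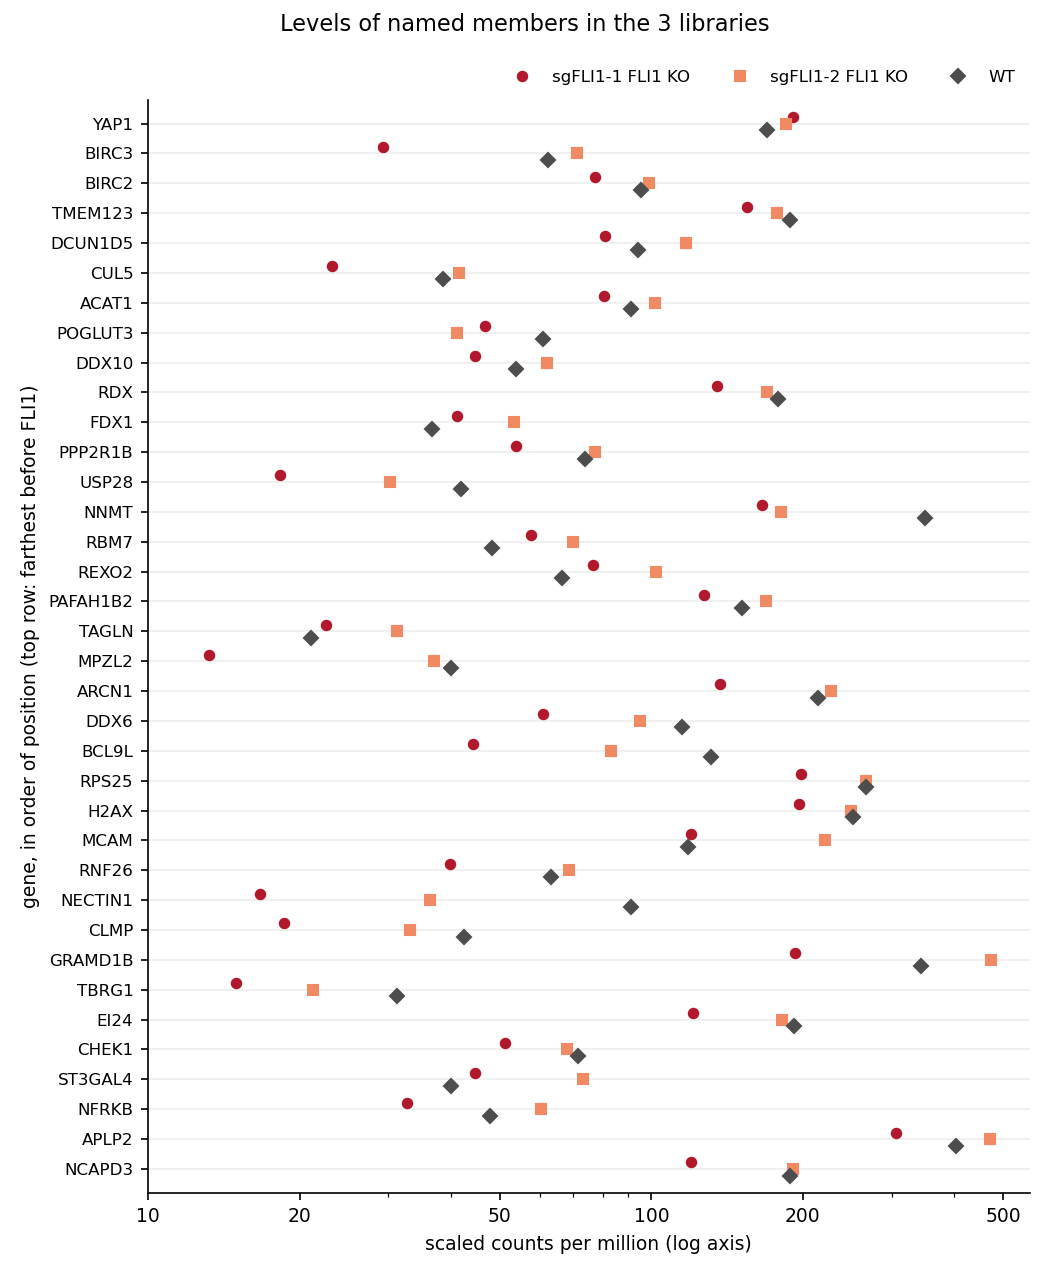
Counts scaled to library size (CPM, horizontal log axis) of 36 members named by the rule, in order of position from the top, with 1 symbol for each library (circle sgFLI1-1, square sgFLI1-2, diamond WT). The circle is the leftmost symbol in most rows, with YAP1, FDX1, RBM7, REXO2, TAGLN, MCAM and ST3GAL4, where WT is leftmost, and POGLUT3, where sgFLI1-2 is leftmost, as the exceptions.

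The promoters of the members bear on FLI1, since a member could hold an ETS site of its own. RefSeq promoters (GRCh38.p14) were matched by symbol for 55 of 67 members, and the motif CCGGAAG, a common core of ETS sites, was searched on both strands in the 250 bases before the start. It was found in 11 of these 55 members (20%), in 19.3% of 6267 expressed genes with a promoter and in 8.52% of all 35116 promoters of the table. The match nearest to the start is not shown for CEP164, which holds the motif and is named in the results (-1.05 for sgFLI1-1 over WT). It is shown for 6 other named members, because they range from above WT with sgFLI1-1 (FDX1) to far below it (TBRG1). Each is written 5′ to 3′ on the strand of the gene with up to 11 bases on each side, and capitals mark the motif or, where it lies on the other strand, its complement.
FDX1, chr11:110429928-110429947, plus strand: ttataggtcacCCGGAAGgc
DCUN1D5, chr11:103092188-103092216, minus strand: cgattgcgtcaCTTCCGGgcctcagcgat
PAFAH1B2, chr11:117144268-117144286, plus strand: tggcaggggaaCCGGAAGt
RPS25, chr11:119018381-119018409, minus strand: cgccttttgccCCGGAAGtactcacagcg
ARCN1, chr11:118572367-118572395, plus strand: gacctgcgccgCTTCCGGttgaagacgtg
TBRG1, chr11:124622837-124622863, plus strand: ccgggacgtaaCTTCCGGgaagggctt

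The 11 members with the motif had a median of -0.65 for sgFLI1-1 over WT, and the 44 without it had a median of -0.44. For sgFLI1-2 over WT the medians were -0.01 with it and 0.10 without it, and for sgFLI1-1 over sgFLI1-2 they were -0.53 with it and -0.52 without it. FDX1, whose match lies 2 bases before the start, was above WT in both KO libraries, and PAFAH1B2, an acetylhydrolase subunit with 3 matches, was below WT with sgFLI1-1 (-0.25) and above it with sgFLI1-2 (0.15). TBRG1, a growth regulator, with 2 matches, was below WT in both (-1.07 and -0.56). A match of letters is not a bound site. RefSeq starts can differ from the starts in the deposited table. By the deposited positions, the sequences shown for RPS25 (start 119018691, minus strand) and TBRG1 (start 124622836) lie inside the gene. The sequence around the match in CEP164, at 117327831-117327853, also lies inside its gene, which starts at 117314557 by those positions.

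By the positions of the deposited table, some members on opposite strands start head to head, either a short distance apart or with overlapping starts. RPS25 and TRAPPC4, a subunit of a vesicle tethering complex, start 72 bases apart, and their ratios for sgFLI1-1 over sgFLI1-2 were -0.43 and -0.46. RPUSD4, a mitochondrial pseudouridine synthase, and FAM118B start 32 bases apart and had ratios of -0.50 and -0.45. SRPRA, a subunit of the signal recognition particle receptor, and FOXRED1, an assembly factor of respiratory complex I, overlap at their starts and had ratios of -0.62 and -0.56. NCAPD3 and VPS26B, a retromer subunit, overlap by 834 bases and had ratios of -0.67 and -0.91. The sources used here do not say whether counting used strand, so reads of overlapping partners cannot be told apart, which also holds for TAGLN and PCSK7, a proprotein convertase, which overlap by 3128 bases on opposite strands.

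The mean of 5 FPKM that chose the members reads all 3 libraries, and 13 members were under 5 FPKM with sgFLI1-1, 0 with sgFLI1-2 and 1 in WT. Just inside that minimum were CUL5 (mean 5.08 FPKM) and TBRG1 (5.14), with ratios for sgFLI1-1 over sgFLI1-2 of -0.84 and -0.51. Just outside were VPS11 (4.92), a subunit of endosomal tethering complexes, and CWF19L2 (4.72), with -0.60 and -0.26.

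Genes of the stretch below the minimum had a like shift. The 43 protein-coding genes with a mean of 1 to 5 FPKM had medians of -0.53 for sgFLI1-1 over WT, 0.05 for sgFLI1-2 over WT and -0.54 for sgFLI1-1 over sgFLI1-2, with 41 of 43 below 0 in the last. Among all expressed genes, whose level is higher, 45.9% were below 0 in that ratio. ATM, the kinase that signals DNA double-strand breaks, had 513 counts with sgFLI1-1, 816 with sgFLI1-2 and 1020 in WT. CBL, a ubiquitin ligase of receptor tyrosine kinases, had 663 counts with sgFLI1-1, 1176 with sgFLI1-2 and 997 in WT. PUS3, a pseudouridine synthase of tRNA, had 0 counts with sgFLI1-1, 84 with sgFLI1-2 and 137 in WT, at least 29.4-fold lower with sgFLI1-1 than with sgFLI1-2 and at least 48.8-fold lower than in WT against a floor of 3 counts in that library. The exceptions to the direction between the KO libraries were ARHGAP42, a RhoA GTPase-activating protein (548 counts with sgFLI1-1, 344 with sgFLI1-2 and 253 in WT), and TTC12 (117, 109 and 182 counts in the same order). These 5 genes were chosen after their values were seen. Over all genes tested by edgeR, 2.95% were called lower. Of the 43, SNX19, a sorting nexin, and ROBO4, an endothelial receptor, were called lower (adjusted p = 0.014 and 0.041 by edgeR).

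The list of secreted and membrane proteases, which includes the matrix metalloproteinases of this stretch, had no member and 5 of its 11 genes at 0 in every library, and its counts summed to 102 with sgFLI1-1, 357 with sgFLI1-2 and 169 in WT. The list of T cell and lymphocyte genes of the stretch had 7 of 8 genes at 0 in every library and 5 counts in all, from CRTAM in WT.

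The 9 genes left out by name at a mean of at least 5 FPKM were mixed. Their medians were -0.47 for sgFLI1-1 over WT, -0.13 for sgFLI1-2 over WT and -0.31 for sgFLI1-1 over sgFLI1-2. Over all genes tested by edgeR, 2.95% were called lower and 1.83% higher. CASP1, the inflammasome caspase, had 170 counts with sgFLI1-1, 80 with sgFLI1-2 and 672 in WT, and CASP4, which senses lipopolysaccharide, had 1099 with sgFLI1-1, 1479 with sgFLI1-2 and 3399 in WT. IL18, a cytokine matured by caspase-1, had 2358 counts with sgFLI1-1, 2085 with sgFLI1-2 and 987 in WT. For these 3 genes both KO libraries lay on the same side of WT, and all 3 were called (adjusted p = 0.0013, 0.0018 and 0.0042 by edgeR). ETS1, the ETS factor next to FLI1, had 1773 counts with sgFLI1-1, 3127 with sgFLI1-2 and 4212 in WT and was not called (log2 fold change -0.83, SE 0.28, adjusted p = 0.12 by edgeR).

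Genes of other biotypes in the stretch with a mean of at least 50 counts numbered 5 and did not all share a direction. SENCR, a noncoding RNA that overlaps FLI1 on the other strand, had 24 counts with sgFLI1-1, 174 with sgFLI1-2 and 134 in WT. The noncoding RNA LINC02762 went the other way, with 218 counts with sgFLI1-1, 170 with sgFLI1-2 and 103 in WT. MIR100HG, the host transcript of a microRNA cluster, had 207 counts with sgFLI1-1, 288 with sgFLI1-2 and 187 in WT, and USP2-AS1 had 39 with sgFLI1-1, 67 with sgFLI1-2 and 46 in WT. The other gene, with no symbol in the table, had 26 counts with sgFLI1-1, 80 with sgFLI1-2 and 68 in WT. Between the KO libraries 4 of the 5 were lower with sgFLI1-1, and LINC02762 was higher.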

How the data were processed

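The 67 members, the role lists and the named genes were chosen with earlier results of these data known. The named genes were FLI1 and its nearest member on each side, the member of highest FPKM in each 5 Mb window, the 6 lowest and 6 highest for sgFLI1-1 over WT, the 4 lowest and 4 highest for sgFLI1-2 over WT, the called members, those next to the FPKM minimum and up to 3 of highest FPKM on each role list. CEP164, KMT2A, PHLDB1, partners of overlapping or head-to-head pairs and genes outside the rule were named after their values were seen.

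Per the labels, NEBNext Ultra poly-A libraries were sequenced, fastp (0.23.2) did the trimming, HISAT2 (2.0.4) the alignment to GRCh38 and StringTie (1.3.4d) the quantification. Raw counts as whole numbers and FPKM for the same genes were deposited. The sources used here do not name the counting tool. Of the 67 member IDs, all are on the same chromosome in GENCODE v44 and 64 have the same start and end. Positions of genes are those of the deposited table. Promoter starts and the coordinates of promoter sequences are those of RefSeq.

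Counts were scaled by TMM (factors 0.9917 for sgFLI1-1, 1.0071 for sgFLI1-2 and 1.0013 for WT), and 0.5 was added before log2 ratios were taken. Both KO libraries were tested against WT with edgeR (4.0.16, R 4.3.3) after low counts were filtered (filterByExpr, minimum 10), with 15483 genes kept, 1 residual degree of freedom and 9.56 prior ones. With 1 WT library, p-values rest on the spread between the KO libraries and borrowed variance, and nothing says that libraries came from separate cultures. SE was taken from the fold change and the F statistic. Windows, medians and exact binomial intervals were computed in Python (3.11.15) with scipy (1.17.1) and tested on simulated data, as was the fit. Median-of-ratios and total-count scaling, FPKM ratios, other minimums and folds, wider windows, DESeq2 (1.42.0) and leaving out each KO library were the alternatives.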

Additional observations from a re-analysis of the deposited data

How the results depend on the processing

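The median member change kept its direction and size under both other scalings, under FPKM ratios with a pseudocount of 1 or 0.1, with the symbols of the rule kept in and with an FPKM minimum of 1. For sgFLI1-1 over WT it was -0.40 over the 26 members left by a minimum of 20 FPKM. Counts of members moved with the number of genes admitted and with the fold, where a 25% threshold asks that the higher library lie at least 25% above the lower. For sgFLI1-1 over WT, members at least 1.5-fold lower numbered 51 of 110 with a minimum of 1 FPKM and 8 of 26 with 20 FPKM, and 48 at the 25% threshold and 11 at 2-fold. Those at least 1.5-fold higher numbered 3 with a minimum of 1 FPKM and 1 with the symbols of the rule kept in. For sgFLI1-2 over WT, the lower members numbered 9 with a minimum of 1 FPKM, 1 with 20 FPKM, 6 with the symbols kept in, 8 at the 25% threshold and 1 at 2-fold, and the higher ones 8 with a minimum of 1 FPKM, 5 with the symbols kept in, 12 at the 25% threshold and 0 at 2-fold. For sgFLI1-1 over sgFLI1-2, the lower members numbered 53 of 110 with a minimum of 1 FPKM, 11 of 26 with 20 FPKM, 58 at the 25% threshold and 5 at 2-fold, and 1 was higher with a minimum of 1 FPKM and 1 with the symbols kept in. The 2 members called lower by edgeR became 0 without the filter on low counts and 0 with DESeq2. With DESeq2 NNMT missed only the 2-fold threshold (log2 fold change -0.99). The cause of the other losses was not tested. With 1 KO library left out there is 1 library a side and no test, and members at least 2-fold below WT numbered from 1 (without sgFLI1-1) to 11 (without sgFLI1-2). With median-of-ratios scaling BCL9L was called too. No paired analysis was possible because WT has 1 library. Each guide and WT rest on 1 library, so the spread between cultures is unknown. Counting error alone is wide for the members of lowest count: for CENATAC, with 181 counts with sgFLI1-1, the interval of sgFLI1-1 over WT ran from -0.96 to -0.40.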
